A study of Homo sapiens with 4 samples.

Results

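The 10 genes described here encode the human enzymes and regulators that lead from arginine to the polyamines: ARG1, ARG2, ODC1, OAZ1, OAZ2, AZIN1, AMD1, SRM, SMS and SAT1. They were chosen by name, with earlier results of these data known. All 10 were found among the 25680 gene names of the deposited tables and passed the filter on low counts. RNA-seq was done on THP-1 cells, a human line from an acute monocytic leukaemia, grown in RPMI with foetal bovine serum. The shPIWIL4 group (n = 2 libraries) received a lentiviral PGP-shPIWIL4 vector with a short hairpin RNA (shRNA) against PIWIL4, and the Scrambled group (n = 2 libraries) received PGP-Scrambled, a vector with a scrambled shRNA. Cells of both groups were sorted 48 hours after transduction, and the labels name a single shRNA against PIWIL4 and no rescue. The treatment label of the shPIWIL4 libraries also holds the word scrambled, so the groups were taken from the sample titles. The comparison asked how gene expression changes in acute myeloid leukaemia cells when PIWIL4, a PIWI-family Argonaute gene, is knocked down.

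Arginase splits arginine into ornithine and urea. Ornithine decarboxylase turns ornithine into putrescine, and aminopropyl groups made from S-adenosylmethionine extend putrescine to spermidine and then spermine. These small cations bind RNA and DNA, and spermidine also supplies the hypusine residue of the translation factor eIF5A. Antizymes bind ornithine decarboxylase and send it to the proteasome, antizyme inhibitors release it, and acetylation marks spermidine and spermine for export or oxidation. Much of this control acts on translation and protein turnover, which RNA-seq does not measure.

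Total counts were 50689304 and 53657246 in shPIWIL4 libraries 1 and 2, and 31458079 and 51655687 in Scrambled libraries 1 and 2. PIWIL4 itself stood at 11.69 and 11.02 TPM (a level corrected for gene length and library size) in shPIWIL4 libraries 1 and 2, against 23.7 and 23.6 TPM in Scrambled libraries 1 and 2, a log2 fold change of -1.10 (SE 0.09, edgeR adjusted p = 1.3e-05). Of the 9 monocyte markers listed, all 9 were above 1 TPM in every library. Of them, 3 rose and 2 fell, where 28.7% of all tested genes rose and 29.1% fell. The 9 markers summed to 3366 and 3258 TPM in shPIWIL4 and 853 and 892 TPM in Scrambled. Most of that difference was LYZ, and the other 8 summed to 867 and 828 TPM in shPIWIL4 and 667 and 689 TPM in Scrambled. None of the 8 erythroid or 9 hepatocyte markers was above 1 TPM in every library. ARG1 is best known from liver and is also expressed in red cell precursors. Summed over each list, erythroid markers came to 0.113 and 0.128 TPM in shPIWIL4 and 0.543 and 0.215 TPM in Scrambled. Hepatocyte markers came to 0.624 and 0.516 TPM in shPIWIL4 and 1.88 and 2.06 TPM in Scrambled. Of that sum, CPS1 alone gave 0.235 and 0.386 TPM in shPIWIL4 and 1.78 and 1.80 TPM in Scrambled. The labels do not say whether replicates came from separate cultures, so p-values measure the spread between these libraries, which may be technical.

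In shPIWIL4 cells, ARG1 and SAT1 transcripts were much lower, ARG2 and SRM transcripts were higher by about the same fold as each other, and the remaining members moved little. By edgeR's quasi-likelihood test at a Benjamini-Hochberg adjusted p under 0.05 over all genes tested, 5 of the 10 members rose (ARG2, SRM, SMS, AZIN1 and AMD1), 3 fell (ARG1, SAT1 and OAZ2) and 2 did not pass (ODC1 and OAZ1). Of all 16108 genes tested, 57.7% were called, 28.7% as higher and 29.1% as lower, so a call by itself is common in these data. The median log2 fold change was 0.19 over the 10 members and -0.003 over all genes tested. ARG1 and SAT1 lay below the 5th percentile of all tested genes (-1.64), ARG2 and SRM lay above the 95th percentile (0.99), and the other 6 members lay between.

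**Figure D1:**
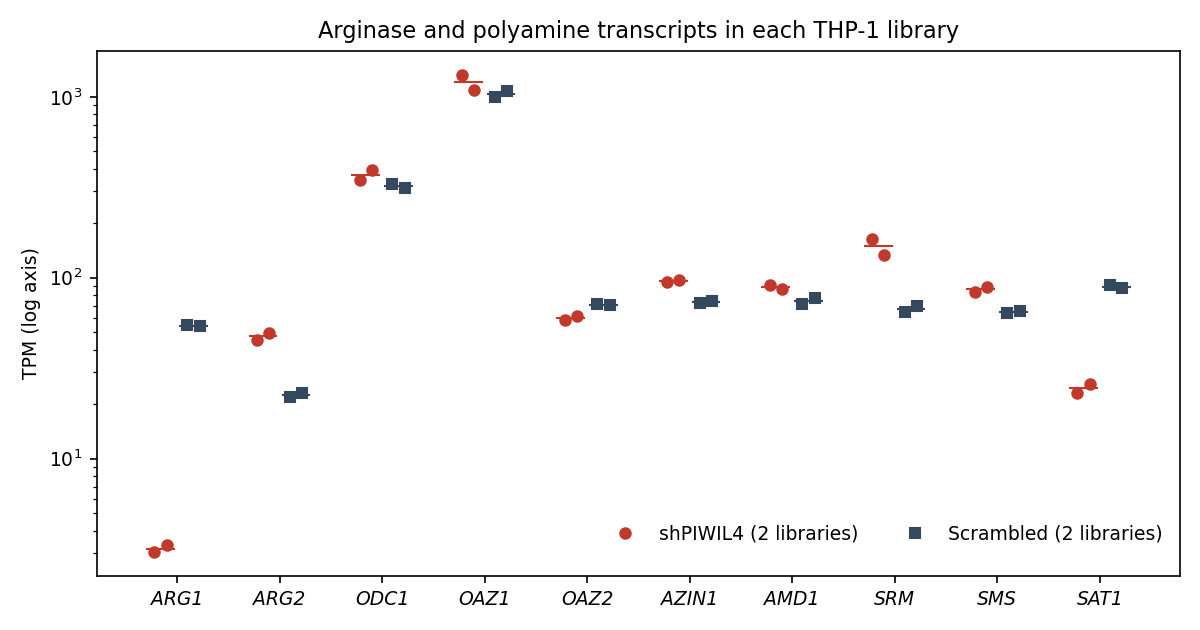
TPM of each member in each library, on a log axis, with shPIWIL4 libraries as circles and Scrambled libraries as squares and short lines at the means of 2 libraries. ARG1 and SAT1 are lower and ARG2 and SRM are higher in both shPIWIL4 libraries, while OAZ1 and ODC1 have the highest levels in every library.

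**Figure D2:**
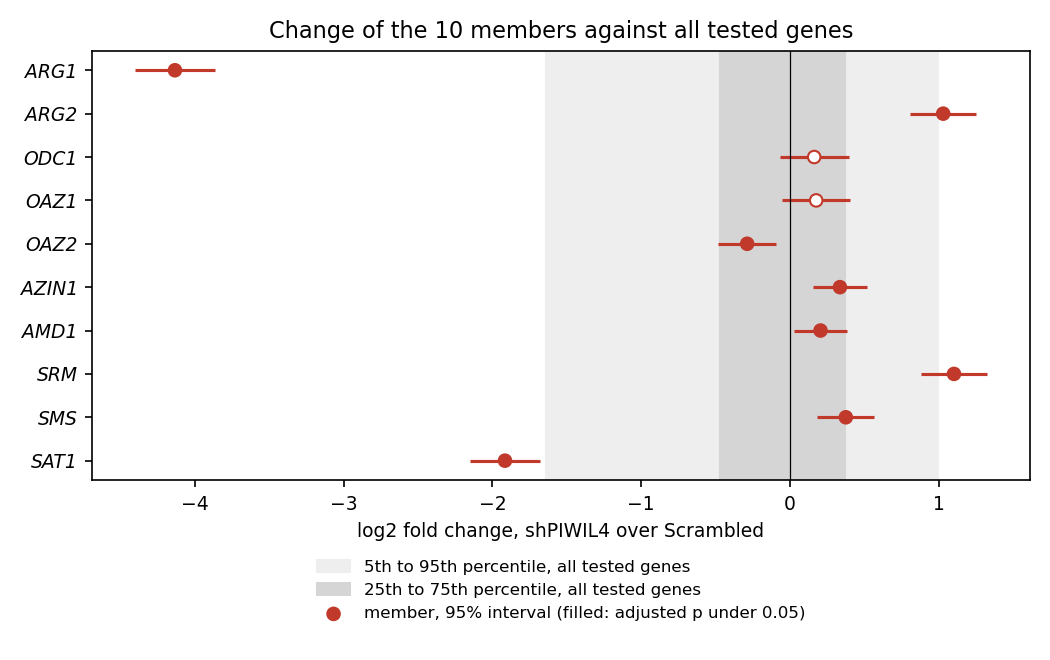
Log2 fold change of each member, shPIWIL4 over Scrambled, with its 95% interval from edgeR; filled points have an adjusted p under 0.05. Grey bands span the 5th to 95th and the 25th to 75th percentiles of all 16108 genes tested, and ARG1 (-4.13) and SAT1 (-1.92) lie below the wider band.

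The sequences before 1 RefSeq start are shown side by side for each of the 4 genes that changed by at least 2-fold. They differ in base composition and in exact matches to the motifs searched. They are the 250 bases before the RefSeq start of each gene (GRCh38.p14, sense strand, 5′ to 3′). Other transcripts of the same gene start farther upstream in GENCODE v29, so that 82 of the 250 bases for ARG1, 122 for ARG2 and 6 for SRM lie in annotated exons of the gene itself, against 0 for SAT1. The stretches are chr6:131572976-131573225 on the plus strand for ARG1, chrX:23782923-23783172 on the plus strand for SAT1, chr14:67619670-67619919 on the plus strand for ARG2 and chr1:11060019-11060268 on the minus strand for SRM. Capitals mark the 4 motifs searched on both strands. One is CACGTG, the E-box that MYC binds together with MAX. Another is TGACGTCA, the full cAMP response element. The TATA box was searched only as TATAAA, so near variants, such as ttaaaa in the SAT1 stretch, are not marked. The box named CCAAT for its letters reads as its reverse complement where it lies on the other strand.
ARG1: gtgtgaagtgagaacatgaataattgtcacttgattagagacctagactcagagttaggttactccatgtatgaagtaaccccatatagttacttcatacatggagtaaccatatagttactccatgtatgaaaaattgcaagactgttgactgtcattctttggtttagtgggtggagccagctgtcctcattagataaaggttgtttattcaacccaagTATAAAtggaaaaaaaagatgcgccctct
SAT1: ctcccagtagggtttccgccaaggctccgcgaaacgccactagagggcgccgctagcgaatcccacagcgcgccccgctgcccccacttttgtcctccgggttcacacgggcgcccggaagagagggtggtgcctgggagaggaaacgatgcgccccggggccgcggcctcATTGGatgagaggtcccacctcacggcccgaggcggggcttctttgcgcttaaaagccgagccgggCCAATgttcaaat
ARG2: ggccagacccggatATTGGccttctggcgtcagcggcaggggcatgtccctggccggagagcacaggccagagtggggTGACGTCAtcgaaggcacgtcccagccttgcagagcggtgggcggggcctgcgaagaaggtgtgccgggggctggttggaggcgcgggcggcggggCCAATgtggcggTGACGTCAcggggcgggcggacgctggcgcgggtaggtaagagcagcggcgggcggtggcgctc
SRM: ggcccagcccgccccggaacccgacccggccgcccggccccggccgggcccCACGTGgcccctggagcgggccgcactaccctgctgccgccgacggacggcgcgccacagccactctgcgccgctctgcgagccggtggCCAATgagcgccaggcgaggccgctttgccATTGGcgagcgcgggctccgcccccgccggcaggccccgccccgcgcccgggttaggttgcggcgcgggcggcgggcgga

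The ARG1 stretch was AT-rich, with 37.6% G and C, against 66.4% for SAT1, 72.4% for ARG2 and 82.0% for SRM. ARG1 had a TATA box whose first base lay 29 bases before this start and inside an exon of other ARG1 transcripts, an element found in 11.5% of all 35116 RefSeq windows of 300 bases (250 before to 50 after a start). ARG2 had the full cAMP response element at 2 places, where 1.85% of windows had it at least once, and the one nearer the start lay inside an exon of another ARG2 transcript. SRM had 1 E-box, and the window of a second RefSeq start of ODC1 had 2, where 7.26% of all windows had at least 1. CCAAT boxes stood at 2 places each in SAT1, ARG2 and SRM, and 34.6% of windows had 1 or more. No match overlapped another in the 12 windows of the 9 members searched, which did not include AZIN1. A match is a run of letters and not a measured binding site.

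ARG1, the cytosolic arginase of the urea cycle, had the largest change of the 10. Its level was 3.05 and 3.31 TPM in shPIWIL4 libraries 1 and 2, from 110 and 127 reads, against 54.8 and 53.8 TPM in Scrambled libraries 1 and 2, from 1322 and 2091 reads. Both shPIWIL4 libraries were far below both Scrambled libraries. ARG1 fell by 4.13 on the log2 scale (SE 0.12), 17.6-fold lower, with an edgeR adjusted p of 6.5e-08, and 0.242% of tested genes had a lower log2 fold change. Of 10 neutrophil granule markers, listed because human neutrophils store ARG1, 6 were tested. Of these, 4 rose and 1 fell, where 28.7% of all tested genes rose and 29.1% fell. The 10 markers summed to 37768 and 31532 TPM in shPIWIL4 and 10193 and 11424 TPM in Scrambled. Most of that difference was CTSG, without which the sums were 9589 and 5701 TPM in shPIWIL4 and 3693 and 4769 TPM in Scrambled. LCN2 and CEACAM8 were at 0 in all 4 libraries, and the part of these markers in the ARG1 value was not tested. In bulk RNA, fewer cells that hold ARG1 transcripts and less ARG1 RNA per cell cannot be told apart.

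ARG2, the mitochondrial arginase made in many tissues, went the other way. Its level was 45.3 and 49.4 TPM in shPIWIL4, against 21.97 and 23.01 TPM in Scrambled, and the groups did not overlap. Its log2 fold change was 1.03 (SE 0.10, edgeR adjusted p = 2.7e-05), 2.04-fold higher. In GENCODE v29, 904 of the 2045 exonic bases of ARG2 are shared with VTI1B on the other strand, and VTI1B had a log2 fold change of 1.12 (SE 0.09). The strand setting of the counting is not given, and the part of VTI1B reads in the ARG2 value was not tested. ARG1 shares 0 exonic bases with MED23, the gene that lies opposite it, and MED23 had a log2 fold change of -0.26.

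By deposited TPM the 2 arginases traded places in level, with the part of VTI1B reads in the ARG2 value not tested. ARG1 made up 6.30% and 6.29% of arginase TPM in shPIWIL4 libraries 1 and 2, against 71.4% and 70.0% in Scrambled libraries 1 and 2. ARG2 was 14.9 times ARG1 in both shPIWIL4 libraries and 0.401 and 0.428 times ARG1 in Scrambled. The summed level of both genes was lower in shPIWIL4, at 48.4 and 52.7 TPM in shPIWIL4, against 76.8 and 76.8 TPM in Scrambled. With 2 libraries a group, a two-sided exact permutation test on such a ratio cannot go below 0.333, and none was run.

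**Figure D3:**
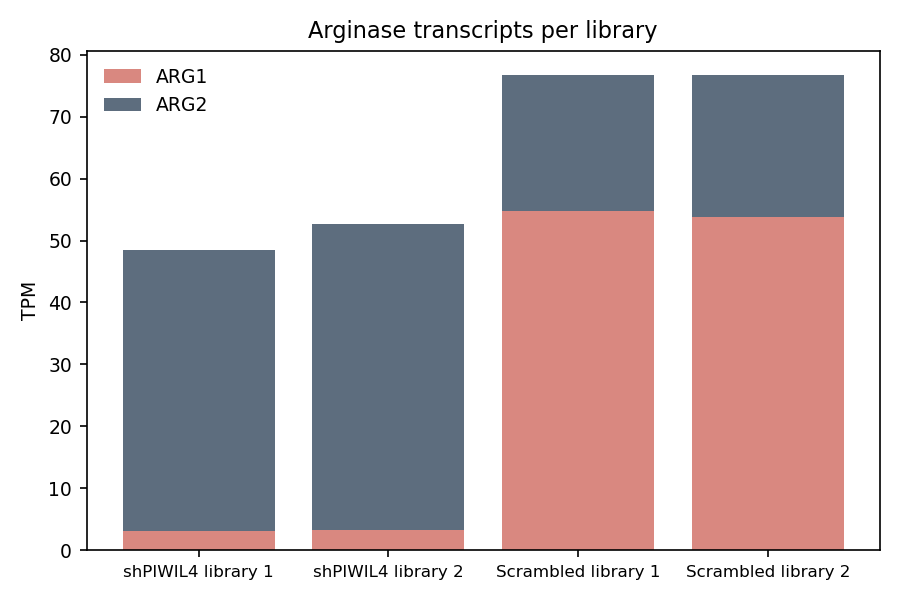
TPM of ARG1 and ARG2 stacked for each of the 4 libraries. The ARG1 part is 3.05 and 3.31 TPM in the shPIWIL4 libraries and 54.8 and 53.8 TPM in the Scrambled libraries, and the whole bar is lower in shPIWIL4.

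Genes whose 4-library profile in log2(CPM + 0.5), centred on each gene's mean, lay nearest to that of ARG1 were ENO2, NFATC4, TBC1D30, SLC2A3 and SPP1, at Euclidean distances of 0.053, 0.23, 0.23, 0.37 and 0.38. CPM here is the count scaled to library size with TMM factors. ENO2, a neuron-type enolase, stood at 9.37 and 10.4 CPM in shPIWIL4, against 149 and 143 CPM in Scrambled. With 4 libraries in 2 groups, such likeness mostly says that these genes fell by a like amount, from -3.68 for TBC1D30 to -4.41 for SLC2A3 on the log2 scale.

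ODC1, ornithine decarboxylase, carries out the first step of polyamine synthesis and is a textbook MYC target. Its level was 347 and 394 TPM in shPIWIL4, against 329 and 312 TPM in Scrambled, the second highest of the 10 in every library. In CPM the groups overlapped, at 433 and 510 CPM in shPIWIL4 and 439 and 403 CPM in Scrambled. The log2 fold change was 0.16 (95% interval -0.07 to 0.40, edgeR adjusted p = 0.20). Without shPIWIL4 library 1 it was 0.29 with an edgeR adjusted p of 4.4e-03, so the call depends on which shPIWIL4 library is kept.

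OAZ1, the main antizyme, was the most abundant member, with 1329 and 1091 TPM in shPIWIL4, against 999 and 1073 TPM in Scrambled. More than 99.5% of gene names had a lower TPM in each library. Its log2 fold change was 0.18 (95% interval -0.05 to 0.41, edgeR adjusted p = 0.16), and without shPIWIL4 library 2 it was 0.29 with an edgeR adjusted p of 4.9e-03. Antizyme is made only when the ribosome shifts frame on its messenger RNA, a step that polyamines promote, so that these levels do not give the amount of protein. OAZ1 was 3.83 and 2.77 times ODC1 in shPIWIL4, and 3.04 and 3.44 times ODC1 in Scrambled, and these ratios overlapped.

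OAZ2, a second antizyme, was lower by a small amount. It stood at 58.4 and 61.5 TPM in shPIWIL4, against 71.5 and 70.4 TPM in Scrambled, which do not overlap. OAZ2 fell by 0.29 on the log2 scale (SE 0.09, edgeR adjusted p = 0.017). The call was lost without Scrambled library 1 (-0.23, edgeR adjusted p = 0.19), without Scrambled library 2 (-0.32, edgeR adjusted p = 0.068) and with the replicate block (edgeR adjusted p = 0.070). OAZ2 made up 4.21% and 5.34% of the summed TPM of OAZ1 and OAZ2 in shPIWIL4, against 6.68% and 6.16% in Scrambled.

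AZIN1 encodes an antizyme inhibitor, a relative of ornithine decarboxylase without its activity that binds antizyme more tightly. It rose, with 94.98 and 96.70 TPM in shPIWIL4, against 72.4 and 74.8 TPM in Scrambled. The log2 fold change was 0.34 (SE 0.08, edgeR adjusted p = 5.5e-03), and it was called under every alternative listed in the closing section, at 0.21 to 0.38. OAZ1 was 14.0 and 11.3 times AZIN1 in shPIWIL4, and 13.8 and 14.3 times AZIN1 in Scrambled, so that the inhibitor transcript stayed far below that of the antizyme in all 4 libraries.

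SRM, SMS and AMD1, which act in synthesis beyond putrescine, were called higher to different degrees, with AMD1 only just past the threshold. SRM, spermidine synthase, had 164 and 134 TPM in shPIWIL4, against 64.5 and 69.9 TPM in Scrambled. Both shPIWIL4 libraries exceeded both Scrambled libraries, and SRM rose by a log2 fold change of 1.10 (SE 0.10, edgeR adjusted p = 2.0e-05), 2.15-fold higher. The shPIWIL4 libraries differed from each other by 1.18-fold in CPM, as they did for ODC1 and OAZ1, which was much less than the difference between the groups. Of all genes tested, 96.2% had a lower log2 fold change.

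SMS, spermine synthase, is the X-linked enzyme that makes spermine from spermidine. Its level was 83.5 and 88.8 TPM in shPIWIL4, against 63.6 and 65.2 TPM in Scrambled, a log2 fold change of 0.38 (SE 0.09, edgeR adjusted p = 4.2e-03). SRM and SMS were near 1 to 1 in Scrambled, with SRM at 1.01 and 1.07 times SMS, and at 1.97 and 1.51 times SMS in shPIWIL4. No test of the difference between the 2 genes was run.

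AMD1 decarboxylates S-adenosylmethionine to form the aminopropyl donor that both synthases use. It stood at 90.9 and 86.2 TPM in shPIWIL4, against 71.9 and 76.9 TPM in Scrambled. The log2 fold change was 0.21 (SE 0.08), only just past the threshold at an edgeR adjusted p of 0.047. It missed the threshold without Scrambled library 1 (edgeR adjusted p = 0.25), without Scrambled library 2 (0.18) and with upper-quartile factors, where the log2 fold change was 0.08. Of 15 alternatives, 7 called AMD1. The annotation lists 4 AMD1 and 2 SRM pseudogenes, and both values are uncertain to the extent that reads are shared with such copies, which was not measured.

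SAT1, spermidine/spermine N1-acetyltransferase, starts the breakdown and export of polyamines. Its level was 23.1 and 25.7 TPM in shPIWIL4, against 91.3 and 87.5 TPM in Scrambled, with no overlap between the groups. SAT1 fell by 1.92 on the log2 scale (SE 0.11, edgeR adjusted p = 1.4e-06), 3.77-fold lower, and 3.48% of tested genes had a lower log2 fold change. Messenger RNA of SAT1 is also spliced into a form that is not translated when polyamines are low, and gene counts merge both forms. SRM transcripts were 7.10 and 5.22 times those of SAT1 in shPIWIL4 and 0.706 and 0.798 times in Scrambled, so the order of this pair was turned round.

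Across the 10 members, levels in Scrambled ran in the order OAZ1, ODC1, SAT1, AMD1, AZIN1, OAZ2, SRM, SMS, ARG1 and ARG2 by mean TPM. AMD1 at 74.4 ± 3.5, AZIN1 at 73.6 ± 1.7 and OAZ2 at 71.0 ± 0.73 TPM were neighbours whose libraries lay close together, as were SRM at 67.2 ± 3.8 and SMS at 64.4 ± 1.2 TPM (SD, n = 2 each). In shPIWIL4 the order was OAZ1, ODC1, SRM, AZIN1, AMD1, SMS, OAZ2, ARG2, SAT1 and ARG1, with SAT1 at 24.4 ± 1.8 TPM and SRM at 149 ± 21 TPM (SD, n = 2 each). In CPM the 2 groups did not overlap for 9 of the 10 members, all but ODC1, where 78.6% of all tested genes did not overlap. By FPKM the Scrambled order was the same. This is no separate check, because FPKM and TPM differ only by a constant factor within each library. By raw count, which also grows with gene length, 5 of the 10 members kept their place.

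Other polyamine genes moved both ways. Of 21 genes listed for oxidation, acetylation, transport, hypusine formation and related steps, 17 were tested, 4 rose, 6 fell and 7 did not pass, beside 28.7% and 29.1% of all tested genes. Their median log2 fold change was 0.09. Of the 3 transport genes tested, 2 rose and 1 fell. ATP13A3, an importer at the cell surface and in endosomes, had 133 and 127 TPM in shPIWIL4, against 52.9 and 57.7 TPM in Scrambled (log2 fold change 1.19, edgeR adjusted p = 5.6e-06). ATP13A2, which exports polyamines from lysosomes, had 14.3 and 9.46 TPM in shPIWIL4, against 4.76 and 5.56 TPM in Scrambled (log2 fold change 1.15).

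On the breakdown side, PAOX, the oxidase of acetylated polyamines, had 2.67 and 2.49 TPM in shPIWIL4, against 4.53 and 5.08 TPM in Scrambled, and fell by 0.95 on the log2 scale. AOC1, a secreted diamine oxidase that degrades putrescine and histamine, had 7.87 and 6.81 TPM in shPIWIL4, against 17.5 and 19.7 TPM in Scrambled, and fell by 1.39. ALDH9A1, an aldehyde dehydrogenase that acts on aminoaldehydes, rose by 0.81 on the log2 scale, with 140 and 150 TPM in shPIWIL4, against 82.4 and 78.7 TPM in Scrambled. SAT2 and HDAC10, a polyamine deacetylase, did not pass, with log2 fold changes of 0.24 and 0.09. SAT2 was called with limma on log2(TPM + 1) (0.27, adjusted p = 0.037) and without shPIWIL4 library 1 (0.33, edgeR adjusted p = 0.026), and HDAC10 without shPIWIL4 library 2 (0.33, edgeR adjusted p = 7.2e-04), while HDAC10 was at -0.18 without shPIWIL4 library 1.

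AZIN2, a second antizyme inhibitor, went against AZIN1. It had 1.07 and 1.48 TPM in shPIWIL4, against 4.87 and 4.78 TPM in Scrambled, and fell by 1.95 on the log2 scale (edgeR adjusted p = 2.4e-05). DHPS, which starts hypusine formation on eIF5A, fell by 0.41, with 77.1 and 73.2 TPM in shPIWIL4, against 93.58 and 99.995 TPM in Scrambled. EIF5A, the gene of its substrate, had 191.7 and 175.1 TPM in shPIWIL4, against 178 and 181 TPM in Scrambled, with a log2 fold change of -0.01 (95% interval -0.19 to 0.16).

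Genes that supply or compete for arginine, ornithine and methionine were also split. Of 35 listed, 28 were tested, 9 rose, 10 fell and 9 did not pass, with a median log2 fold change of -0.02. Without Scrambled library 2, 5 were called higher and 9 lower. Ornithine and proline genes held 4 of the rises and 0 falls among 7 tested, while 3 of 4 tested genes of arginine synthesis and the urea cycle fell and 0 rose. Of all tested genes 28.7% rose and 29.1% fell, and the difference between these subgroups was not tested. Among the urea cycle falls, NAGS, named only for its low level, had 5 and 2 reads in shPIWIL4 and 22 and 29 reads in Scrambled. With its shPIWIL4 reads below the minimum count of 10, NAGS passed the filter only through Scrambled. A fall was thus the likely outcome for NAGS, and it adds no weight to the count of falls. CPS1 had 35 and 61 reads in shPIWIL4 and 177 and 289 reads in Scrambled.

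SLC25A15, the ornithine carrier of the inner mitochondrial membrane, had 33.8 and 36.5 TPM in shPIWIL4, against 17.7 and 18.4 TPM in Scrambled (log2 fold change 0.92, edgeR adjusted p = 3.3e-05). PYCR1, a proline-making reductase in mitochondria, rose by 0.76, with 71.5 and 58.5 TPM in shPIWIL4, against 35.1 and 38.9 TPM in Scrambled. ASL, which releases arginine from argininosuccinate, had 20.5 and 16.9 TPM in shPIWIL4, against 34.6 and 38.3 TPM in Scrambled, and fell by 1.01. ASS1, the enzyme before it, was at -0.02 (95% interval -0.19 to 0.16), with 130 and 123 TPM in shPIWIL4 and 122 and 126 TPM in Scrambled.

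Several transcripts at low levels fell. CPS1, carbamoyl phosphate synthetase of the urea cycle, had 0.235 and 0.386 TPM in shPIWIL4, against 1.78 and 1.80 TPM in Scrambled. NOS3, a nitric oxide synthase that also uses arginine, had 0.907 and 0.586 TPM in shPIWIL4, against 2.36 and 2.73 TPM in Scrambled, and the arginine transporter SLC7A2 had 0.206 and 0.204 TPM in shPIWIL4, against 0.782 and 0.843 TPM in Scrambled. Their log2 fold changes were -2.56, -1.82 and -2.03, with edgeR adjusted p-values of at most 4.2e-05. MTR, methionine synthase, fell by 0.66, with 17.5 and 18.5 TPM in shPIWIL4, against 27.4 and 27.7 TPM in Scrambled. MAT2A, which makes S-adenosylmethionine, had 235 and 261 TPM in shPIWIL4 and 251 and 237 TPM in Scrambled, and its log2 fold change of -0.02 (95% interval -0.24 to 0.20) did not pass.

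**Figure D4:**
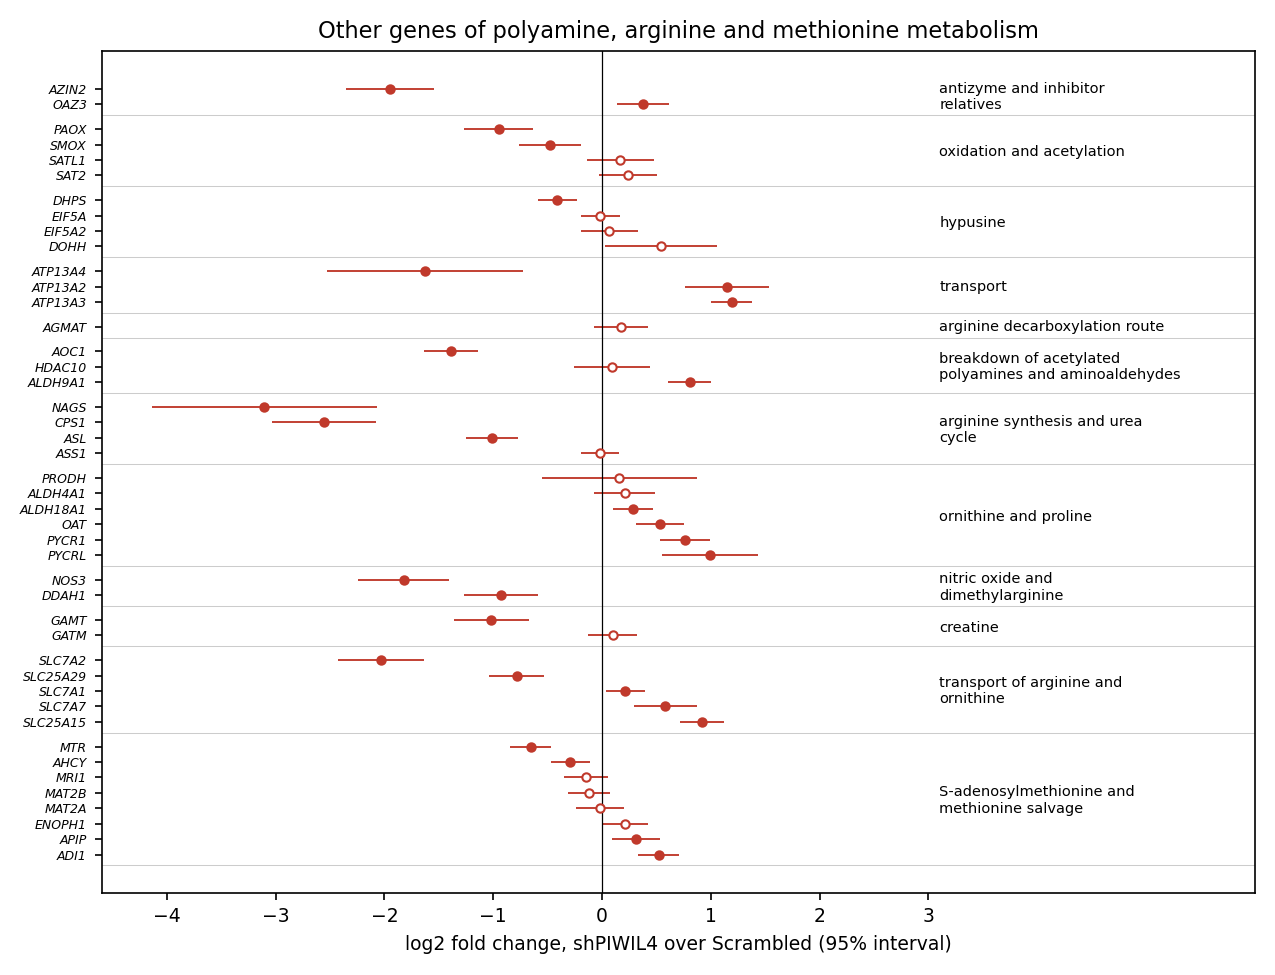
Log2 fold change, shPIWIL4 over Scrambled, with 95% intervals from edgeR, of the 17 other polyamine genes and 27 of the 28 arginine, ornithine and methionine genes tested, grouped by step; filled points have an adjusted p under 0.05. Both directions occur, with ornithine and proline genes to the right of 0 where called and arginine synthesis genes to the left. Of the latter, CPS1 and NAGS were at low levels, and NAGS passed the filter on low counts only through Scrambled.

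Of 17 transcription factors and receptors listed because they are known to act on ARG1 or ODC1, 16 were tested. Of these, 7 rose, 4 fell and 5 did not pass, where 28.7% of all tested genes rose and 29.1% fell. MYC, an activator of ODC1, had 127 and 115 TPM in shPIWIL4, against 128 and 135 TPM in Scrambled, with a log2 fold change of -0.16 (95% interval -0.34 to 0.02, edgeR adjusted p = 0.11). It was called lower with upper-quartile factors (-0.28), with library totals (-0.21), under the stricter filter (-0.21) and without shPIWIL4 library 1 (-0.20). Its partner MAX rose by 0.33, and the MAX partners MXI1 and MXD1, which oppose MYC, fell by 0.85 and 0.52. MAX was not called with upper-quartile factors (0.21) or without Scrambled library 1 (0.31, edgeR adjusted p = 0.084).

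Among factors tied to ARG1, mainly from work in mice, STAT6, the signal carrier of interleukin-4, fell by 0.53 on the log2 scale, and IL4R, the gene of the interleukin-4 receptor, rose by 0.74. PPARG, a lipid-sensing nuclear receptor, had 78.0 and 89.0 TPM in shPIWIL4, against 25.3 and 25.3 TPM in Scrambled, the largest rise of the list (log2 fold change 1.68, edgeR adjusted p = 2.3e-06). PPARD went the other way and fell by 1.27. CEBPA and CEBPB were at -0.006 (95% interval -0.22 to 0.20) and -0.005 (95% interval -0.30 to 0.29). STAT3, KLF4, EPAS1 and HIF1A rose by 0.52, 0.85, 1.05 and 0.31, and HIF1A was not called without Scrambled library 1 (edgeR adjusted p = 0.086) or with upper-quartile factors. SPI1 and NR1H3 had log2 fold changes of -0.16 and 0.13 and did not pass, and SPI1 was called without shPIWIL4 library 1 (-0.41) but was at 0.07 without shPIWIL4 library 2.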

How the data were processed

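THP-1 libraries (2 shPIWIL4, 2 Scrambled) were grouped by sample title. Per the submitters' processing notes, the authors used STAR, featureCounts and DESeq2 with build hg19; versions, annotation and strand: not given in the sources used here. Deposited tables hold raw read counts and the authors' FPKM and TPM. Levels are the deposited TPM, and FPKM served only for the order of levels. The table of normalized counts was not used. Testing used edgeR 4.0.16 under R 4.3.3 (filterByExpr, minimum count 10 and total 15, TMM, robust quasi-likelihood F test, group as the only term, Benjamini-Hochberg over 16108 genes, adjusted p under 0.05). The standard error is the log2 fold change over the square root of F. Because TMM centres the libraries on their shared genes, every direction is relative to that centre. DESeq2 1.42.0 and limma 3.58.1 were alternatives. The method was tested on simulated counts. Chi-square per gene was 27.9 between shPIWIL4 and 7.89 between Scrambled libraries, more than sampling noise, so replicates were kept apart. Members and gene lists were chosen with earlier results of these data known. Named from each pathway list were up to 7 called genes with the smallest p and the 3 most abundant not called, from the regulators every tested gene, and for ARG1 the 5 nearest profiles; 1 gene so chosen is counted in its list but not reported here. Promoter sequences are from RefSeq (GRCh38.p14), which is not the build of the files, and exon overlaps are from GENCODE v29.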

Additional observations from a re-analysis of the deposited data

How the results depend on the processing

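ARG1, ARG2, SRM, SAT1, SMS and AZIN1 were called in the same direction under all 15 alternatives, with log2 fold changes of -4.26 to -3.73, 0.91 to 1.12, 0.98 to 1.22, -2.04 to -1.81, 0.25 to 0.45 and 0.21 to 0.38. ODC1 and OAZ1 were each called under 2 of them, OAZ2 under 12 and AMD1 under 7. With upper-quartile factors the all-gene median was -0.12 (log2), and 37.6% of calls were then higher, against 49.7% with TMM. Leaving out 1 library in turn gave 4 to 6 members higher and 2 to 3 lower, 3560 to 5164 genes higher and 3525 to 5011 lower over all genes, and 5 (without Scrambled library 2) to 11 arginine, ornithine and methionine genes higher. In these fits the lone library of a group is assumed to vary like the other group. Without Scrambled library 1, 3 other polyamine genes were higher and 4 lower. The cause of these differences was not tested.

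The titles number the libraries 1 and 2 in both groups without saying that a number marks a shared batch. Deviations of same-numbered libraries from their group means correlated at -0.48. With the replicate block 3921 genes were higher and 4197 lower, and of the members 4 were higher and 2 lower, with AMD1 (adjusted p = 0.21) and OAZ2 (0.070) lost. With the pairing crossed, an alternative chosen after seeing the data, 5728 genes were higher and 5641 lower.

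Signs turned for genes near 0 that were not called. Without a filter on low counts the log2 fold changes were 0.0242 for EIF5A, 0.0163 for MAT2A, 0.0207 for ASS1, 0.0339 for CEBPA and 0.0358 for CEBPB. DESeq2 gave 0.0016 for EIF5A, 0.0109 for CEBPA and 0.0123 for CEBPB. With limma on log2(TPM + 1), with the same on all genes above 0 and with a pseudocount of 0.1 they were 0.0293, 0.0293 and 0.0294 for EIF5A, 0.0215, 0.0215 and 0.0216 for MAT2A, 0.0267, 0.0267 and 0.0269 for ASS1, 0.0364, 0.0364 and 0.0365 for CEBPA and 0.0274, 0.0274 and 0.0281 for CEBPB. Upper-quartile factors gave -0.0285 for HDAC10. Leaving out 1 library in turn gave -0.0453 to 0.0301 for EIF5A, -0.1825 to 0.3306 for HDAC10, -0.1176 to 0.0847 for MAT2A, -0.0194 to 0.0023 for ASS1, -0.09 to 0.088 for CEBPA, -0.1961 to 0.1779 for CEBPB and -0.4063 to 0.068 for SPI1.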

Other observations

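MTAP, which clears the methylthioadenosine that SRM and SMS release and returns it to methionine, had 0 reads in all 4 libraries. A count of 0 allows up to 3 reads, which is 0.059 and 0.058 CPM in shPIWIL4 and 0.094 and 0.057 CPM in Scrambled. Its neighbours in the gene order of chromosome 9, chosen after the value of MTAP was seen, were MIR31HG and IFNE on one side and CDKN2A, CDKN2B-AS1 and CDKN2B on the other, and each also had 0 reads in all 4 libraries. The next gene, DMRTA1, had 0 and 0 reads in shPIWIL4, against 2 and 3 reads in Scrambled. Of all 25680 gene names, 20742 had any read in the 4 libraries, so a count of 0 throughout is not rare for a single gene. How often a run of neighbouring genes is at 0 throughout was not tested. Later enzymes of the same salvage route were present, of which ADI1 and APIP were chosen after their values were seen. ADI1 had 80.2 and 77.7 TPM in shPIWIL4, against 51.4 and 55.4 TPM in Scrambled (log2 fold change 0.52, edgeR adjusted p = 5.6e-04), and APIP had 28.6 and 28.5 TPM in shPIWIL4, against 21.6 and 23.0 TPM in Scrambled. The call of APIP (log2 fold change 0.31, edgeR adjusted p = 0.022) was the weaker of the pair. MRI1 and ENOPH1, of the same route, did not pass, with log2 fold changes of -0.15 and 0.22 (edgeR adjusted p = 0.19 and 0.069).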
